A study of Mus musculus with 56 samples.

Results

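Levels of 8 genes that encode transcription factors of the striatum were followed across 2 brain regions of inbred mice. The genes were Six3, Pbx3, Meis1, Meis2, Foxp1, Foxp2, Zfp503 and Bcl11b, taken by name. All 32 probe sets that the platform's gene table assigns to 1 of these symbols alone, of 44951 probe sets, were read, and each gene was summarised by its brightest probe set. Past the filter on dim probe sets, which asked for more than log2 5 on at least 13 of 54 arrays, there were 10684 features, 8811 of them named genes, and all 8 genes were among them with 27 of their 32 probe sets. The arrays held RNA of nucleus accumbens (27 arrays), the ventral part of the striatum, and of prefrontal cortex (29 arrays), and the RNA on an array was a pool of 3 males of 1 strain, 8 to 10 weeks old. The labels name no treatment and no engineered allele. The regions of a strain were dissected from shared brains. MRL/MpJ and NZO/HILtJ had cortex arrays but no accumbens arrays here, which left 54 paired arrays of 27 strains. Each strain gave 1 pool per region, so n counts strains, and pool-to-pool variation is part of their spread.

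Most neurons of the striatum are inhibitory spiny projection neurons, which arise from the lateral ganglionic eminence of the embryo. Transcription factors tied to these neurons or their precursors include homeodomain proteins (Six3 and the TALE proteins Pbx3, Meis1 and Meis2), forkhead proteins (Foxp1 and Foxp2) and zinc finger proteins (Zfp503 and Bcl11b). MEIS and PBX proteins bind DNA as partners. Several of the 8 are also used in other cells: Foxp1, Foxp2 and Bcl11b are known from subsets of cortical projection neurons, and Meis2 from interneurons of the olfactory bulb.

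Over all strains the marker genes went with the labels of the 2 regions, although the BALB/cByJ accumbens array was low and the MA/MyJ cortex array high for spiny neuron markers. All 14 tested markers of medium spiny neurons were higher in accumbens and all 10 tested markers of cortical excitatory neurons were lower there (limma, adjusted p under 0.05). The mean log2 intensity of the spiny neuron markers lay between 7.62 and 10.74 on accumbens arrays and between 5.67 and 9.72 on cortex arrays. Oligodendrocyte markers were higher in accumbens for 9 of 9 tested genes, with a median difference of 1.36 log2 units. With their mean as a covariate all 8 transcription factor genes were called higher, Foxp1 by 1.04 (limma, adjusted p = 0.028). That mean itself differed between the regions, so this fit cannot fully tell region and oligodendrocyte content apart. By their spiny neuron mean, arrays of 5 strains stood apart from the others of their region. The accumbens arrays of BALB/cByJ, CE/J, NON/LtJ and WSB/EiJ lay between 7.62 and 9.58, against 10.11 to 10.74 on the arrays of 22 other strains. The cortex array of MA/MyJ was at 9.72, against 5.67 to 5.97. Results are therefore given with these 5 strains and without them, on 22 strains. The 22 were not uniform in other lists. Accumbens arrays of NOD/LtJ, SJL/J, BUB/BnJ and P/J had the highest cortical neuron means of the 22, at 5.55, 5.37, 5.30 and 4.87, against a median of 4.07. By the values, the arrays of each region were normalized in a run of their own, so the region and the run cannot be told apart. The typical feature (the median over all) read 0.12 log2 units more in accumbens. In bulk tissue, fewer cells of a type and less RNA per cell cannot be told apart either.

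RefSeq promoters (GRCm38.p6, 250 bases before to 50 after an annotated start) were found for 6 of the 8 genes, 8 promoters in all. Of these, 3 are printed from 5′ to 3′ on the gene's strand, because they span the range from several to none of the motifs bound by the proteins studied here. Capitals mark the core motifs TGACAG (MEIS), TGATTG (PBX) and TGTTTA (forkhead) on either strand; these motifs were chosen after the sequences had been seen.
Six3, chr17:85620584-85620883, plus strand: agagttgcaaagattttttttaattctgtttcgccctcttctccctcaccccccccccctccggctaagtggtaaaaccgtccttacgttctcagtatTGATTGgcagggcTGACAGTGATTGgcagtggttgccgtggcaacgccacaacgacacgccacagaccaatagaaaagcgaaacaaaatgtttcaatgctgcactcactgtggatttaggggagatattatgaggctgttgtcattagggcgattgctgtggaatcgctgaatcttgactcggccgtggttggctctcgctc
Foxp1, chr6:99266466-99266765, minus strand: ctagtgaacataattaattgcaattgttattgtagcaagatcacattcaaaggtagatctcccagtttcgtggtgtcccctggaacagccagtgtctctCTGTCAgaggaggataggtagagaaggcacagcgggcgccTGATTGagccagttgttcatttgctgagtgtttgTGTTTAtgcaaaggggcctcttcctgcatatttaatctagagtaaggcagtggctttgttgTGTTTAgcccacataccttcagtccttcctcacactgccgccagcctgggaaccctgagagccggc
Zfp503, chr14:21989552-21989851, minus strand: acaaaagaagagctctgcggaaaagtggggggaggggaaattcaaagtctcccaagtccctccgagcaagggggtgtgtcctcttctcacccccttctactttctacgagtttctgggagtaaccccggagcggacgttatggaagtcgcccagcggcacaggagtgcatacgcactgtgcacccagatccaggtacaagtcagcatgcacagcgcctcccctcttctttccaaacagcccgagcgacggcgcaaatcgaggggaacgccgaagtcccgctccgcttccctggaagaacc
Counted from 1 at the 5′ end, the Six3 promoter holds the PBX letters at positions 99 to 104 and 118 to 123 and the MEIS letters at 112 to 117, so that a MEIS and a PBX motif stand next to each other without overlap. The printed Foxp1 promoter is the one with the most motifs of those found for the gene. Its MEIS letters lie on the opposite strand at 100 to 105 and its PBX letters at 140 to 145. The forkhead letters lie at 174 to 179 and 235 to 240. Of the other Foxp1 promoters, that at chr6:99520944 holds 1 forkhead motif and that at chr6:99028249 holds 1 PBX and 1 forkhead motif. The Zfp503 promoter holds none of the 3 motifs in this window, and neither do those of Meis1, Meis2 and Bcl11b. Of all 32851 RefSeq promoters of this length, 19.2% hold the MEIS letters, 14% the PBX letters, 13.4% the forkhead letters and 39.3% any of the 3, so a match describes the sequence and is not evidence of binding.

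The first comparison asked how each gene's level differed between accumbens and cortex. All 8 genes were higher in accumbens (limma, Benjamini-Hochberg adjusted p under 0.05 over all features), against 51.0% of features called higher and 32.9% called lower. All 8 measured differences were at least 2-fold, which held for 8.29% of features, although the lower bound for Meis1 was 1.44-fold. The median difference of the 8 was 3.35 log2 units, or 2.79 if log2 5 is put in for any lower region mean, and that of all features was 0.12. The split of all called features depends on the scaling: 60.8% of them were higher with the values as deposited, 50.5% after quantile normalization over both regions and 51.7% after centring each array, while all 8 genes were called higher under each. Six3, Pbx3, Meis1 and Zfp503 passed the filter through their accumbens arrays, with at most 1 of 27 cortex arrays above log2 5, so these 4 had to differ and the counts over the 8 are descriptions. Where a region mean lay under log2 5, the fold is given as a lower bound against log2 5 and the measured log2 difference is not ranked. Of the 4 genes measured in both regions, Foxp2 differed by 4.02 log2 units, Bcl11b by 2.14, Meis2 by 2.02 and Foxp1 by 1.29. The differences of Bcl11b and Meis2 were not told apart from each other, given their SE of 0.13 and 0.12. These sizes hold for the brightest probe sets. Over all probe sets Meis2 ran between 2.02 and 3.53, Bcl11b between 1.48 and 2.72 and Foxp1 between 0.92 and 2.12. The upper ends of Meis2 and Foxp1 came from probe sets with cortex means under log2 5, at 4.58 and 2.91, so they are measured values without an order. The bounds of the other 4 were 4.41 for Pbx3, 3.45 for Six3, 3.44 for Zfp503 and 0.53 for Meis1.

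Six3, a homeodomain factor of the forebrain needed in mice for striatopallidal spiny neurons, was well above the filter level in accumbens and below it in nearly all of cortex. Its probe set 1427523_at read 7.01 at the lowest, 8.54 at the median and 8.87 at the highest on 27 accumbens arrays, against 2.95, 3.01 and 5.66 on 27 cortex arrays (log2 intensity). The groups did not overlap, and the cortex array of MA/MyJ was the only one of 27 above log2 5. Six3 averaged 8.45 ± 0.37 in accumbens and 3.12 ± 0.51 in cortex (SD, n = 27), a difference of 5.33 (SE 0.11, adjusted p = 4.5e-27) or at least 10.9-fold. The other 2 Six3 probe sets were dim in both regions: 1426637_a_at averaged 2.53 in each, and 1426638_at 2.72 in accumbens and 2.78 in cortex.

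Pbx3, a TALE homeodomain protein that pairs with MEIS and HOX proteins, had the lowest accumbens SD of the 8 over 27 strains (0.17), while on the 22 strains those of Bcl11b (0.12) and Six3 (0.15) were lower. Probe set 1447640_s_at read 9.12, 9.39 and 9.71 in accumbens (lowest, median, highest), against 3.33, 4.15 and 8.44 in cortex. The groups did not overlap, although MA/MyJ cortex came within 1.03 log2 units of the accumbens array of its own strain. The means were 9.41 ± 0.17 in accumbens and 4.26 ± 0.92 in cortex (SD, n = 27), a difference of 5.15 (SE 0.17, adjusted p = 2.1e-22), at least 21.2-fold. Without MA/MyJ the cortex SD was 0.41, and every other cortex array lay below log2 5, where levels are not ranked here. The second Pbx3 probe set, 1421193_a_at, differed by 4.01 (SE 0.09).

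Meis1, a TALE partner of PBX proteins, was dim on these arrays. Probe set 1450992_a_at read 4.66, 5.52 and 6.52 in accumbens (lowest, median, highest), against 2.66, 2.78 and 4.64 in cortex. No cortex array passed log2 5, and the lowest accumbens array, C57BL/6J, was also under it, so it has no order against cortex. Meis1 averaged 5.53 ± 0.34 in accumbens and 2.84 ± 0.36 in cortex (SD, n = 27), a difference of 2.68 (SE 0.10, adjusted p = 4.1e-21), of which the filter level supports at least 1.44-fold. Its other 2 probe sets, dim in both regions, differed by 0.20 and 0.11.

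Meis2, the relative of Meis1 that marks the lateral ganglionic eminence, was measured well in both regions. The 27 accumbens arrays read 8.04, 10.41 and 10.84 (lowest, median, highest), against 7.85, 8.24 and 9.67 in cortex. The groups overlapped through the BALB/cByJ accumbens array, the lowest, and the MA/MyJ cortex array, the highest, and Meis2 was higher in accumbens in 26 of 27 strains. The means were 10.30 ± 0.54 in accumbens and 8.28 ± 0.35 in cortex (SD, n = 27), a difference of 2.02 (SE 0.12, adjusted p = 5.7e-16), or 4.04-fold. Its 4 probe sets differed by 2.02 to 3.53, the largest on 1440091_at, whose cortex mean of 4.58 lay under log2 5.

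Foxp2, a forkhead repressor known for its role in human speech and enriched in direct-pathway spiny neurons of mice, read 7.54, 9.61 and 10.07 in accumbens (lowest, median, highest), against 3.99, 5.52 and 7.40 in cortex. The groups did not overlap: BALB/cByJ was lowest in accumbens and MA/MyJ highest in cortex. Foxp2 averaged 9.50 ± 0.56 in accumbens and 5.48 ± 0.60 in cortex (SD, n = 27), a difference of 4.02 (SE 0.16, adjusted p = 3e-20), or 16.2-fold. Of its 6 probe sets 5 passed the filter and differed by 2.75 to 4.13. Among these only 1438232_at, the brightest, had a cortex mean above log2 5, so the other sizes are measured values without an order.

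Foxp1, the forkhead relative that spiny neurons of both pathways and middle cortical layers use, had the smallest difference of the 4 genes measured in both regions and, over 27 strains, the widest accumbens spread of the 8. Probe set 1435222_at read 5.27, 9.14 and 10.02 in accumbens (lowest, median, highest), against 7.01, 7.45 and 8.95 in cortex. The groups overlapped, with 7 of 27 accumbens arrays at or below the MA/MyJ cortex array, and Foxp1 was higher in accumbens in 24 of 27 strains. It averaged 8.83 ± 0.94 in accumbens and 7.54 ± 0.38 in cortex (SD, n = 27), a difference of 1.29 (SE 0.18, adjusted p = 1.1e-07), or 2.45-fold. The sign was turned in BALB/cByJ, at 5.27 in accumbens and 7.52 in cortex, in NON/LtJ, at 7.12 and 7.70, and by -0.05 in CE/J. On the 22 strains the difference was 1.69 and the accumbens SD 0.30, against 0.37 for Meis1 and 0.34 for Foxp2. All 8 Foxp1 probe sets were higher in accumbens, by 0.92 to 2.12, the largest on 1443258_at, whose cortex mean of 2.91 lay under log2 5.

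Zfp503, a zinc finger repressor also called Nolz1 and found in striatal progenitors and young striatal neurons, read 6.51, 8.51 and 9.08 in accumbens (lowest, median, highest), against 3.77, 4.06 and 6.68 in cortex. BALB/cByJ accumbens lay below MA/MyJ cortex, the only overlap. The means were 8.44 ± 0.47 in accumbens and 4.20 ± 0.55 in cortex (SD, n = 27), a difference of 4.24 (SE 0.14, adjusted p = 3.7e-22), at least 10.8-fold, and its second probe set differed by 3.45 (SE 0.08).

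Bcl11b, also called Ctip2, a zinc finger factor of spiny neurons and of deep-layer cortical projection neurons, read 8.24, 10.53 and 10.75 in accumbens (lowest, median, highest), against 7.60, 8.15 and 9.96 in cortex. It was higher in accumbens in 27 of 27 strains, but by only 0.02 in BALB/cByJ, and 3 accumbens arrays lay at or below MA/MyJ cortex. Bcl11b averaged 10.35 ± 0.53 in accumbens and 8.21 ± 0.44 in cortex (SD, n = 27), a difference of 2.14 (SE 0.13, adjusted p = 1.3e-15), or 4.41-fold. Its 4 probe sets differed by 1.48 to 2.72.

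**Figure D1:**
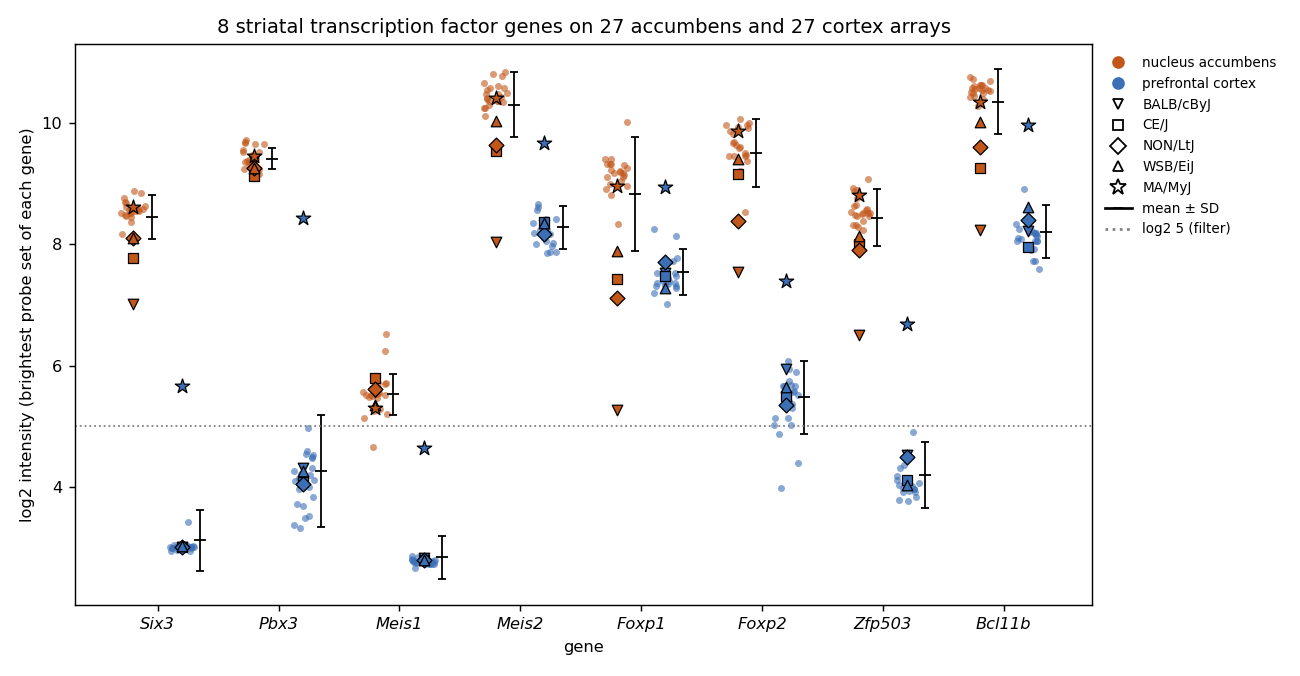
Log2 intensity of the brightest probe set of each gene (vertical axis) on 27 accumbens arrays (orange, left of each gene) and 27 cortex arrays (blue, right), with mean ± SD beside the points; marked shapes are the strains with an array that stood apart and the dotted line is the filter level. BALB/cByJ accumbens is the lowest accumbens array for 6 genes, and MA/MyJ cortex the highest cortex array for every gene but Meis1, whose cortex arrays are all under the filter level and have no order.

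Every accumbens array was above every cortex array for 4 of the 8 genes (Six3, Pbx3, Meis1 and Foxp2) by the measured values, which held for 6.12% of features over 27 strains; for Meis1 this sets levels under log2 5 against each other. The 5 strains were set apart by their spiny neuron markers, and their arrays held every overlap of the 8 genes. Leaving them out favours separation and larger differences, so the values without them are descriptions. Without the 5 strains the groups of all 8 genes were apart, against 12.5% of features over 22 strains. The measured differences on those strains were 5.54 log2 units for Six3, 5.35 for Pbx3, 2.76 for Meis1, 2.26 for Meis2, 4.27 for Foxp2, 1.69 for Foxp1, 4.50 for Zfp503 and 2.43 for Bcl11b, so each was larger than with all 27. Over all 32 probe sets, 30 were higher in accumbens, against 37.8% of the 44951 probe sets, 1 was lower (the dim Six3 probe set 1426638_at, by -0.05) and 1 did not pass the threshold (the dim 1426637_a_at). All 27 probe sets past the filter were higher; a probe set that passed only through its accumbens arrays had to differ, so that count is a description.

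**Figure D2:**
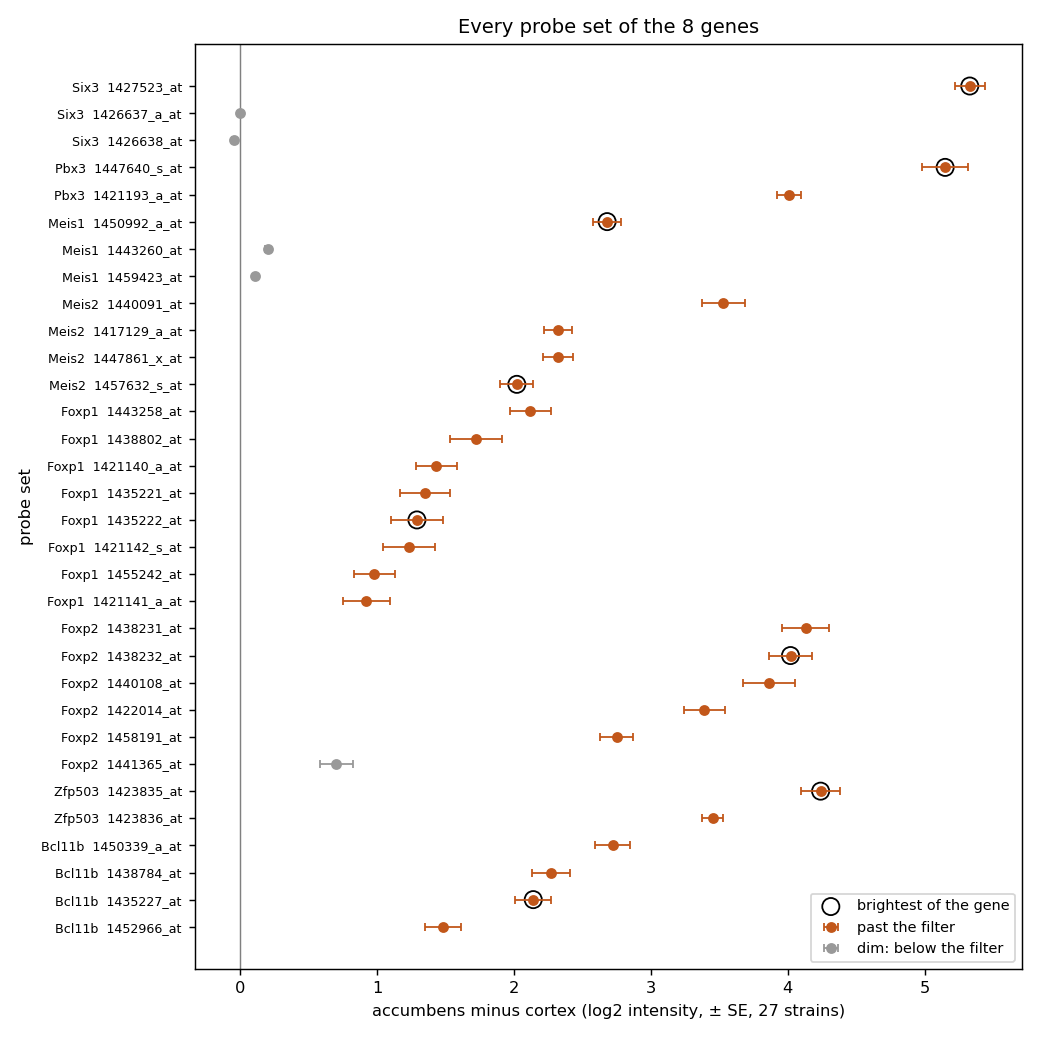
Accumbens minus cortex difference (horizontal axis, log2 intensity, ± SE over 27 strains) of each of the 32 probe sets, grouped by gene, with the brightest probe set of each gene circled and dim probe sets in grey. The probe sets of Foxp1 run from 0.92 to 2.12 and those past the filter of Foxp2 from 2.75 to 4.13.

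The 5 arrays that stood apart did not move all 8 genes alike. The BALB/cByJ accumbens array lay below the range of the 22 other strains for 6 genes: its difference from their median was -1.56 log2 units for Six3 (7.01 against 8.57), -2.11 for Foxp2, -2.30 for Bcl11b, -2.41 for Meis2 and -3.92 for Foxp1 (5.27 against 9.19), and Zfp503 read 6.51 against 8.51. The same array read 9.39 for Pbx3, with a median of 9.40 over the 22 strains, and 5.56 for Meis1, with a median of 5.52. Its spiny neuron mean differed from the others' median by -2.89, while the interneuron mean, at 8.26, and the astrocyte mean, at 9.81, lay above the ranges of the others (7.14 to 8.14 and 8.82 to 9.43). The septum and olfactory list, at 6.20, lay within its range of 5.31 to 6.32. On the linear scale the array kept 6.60% of the others' median Foxp1 intensity, 33.8% for Six3, 99.5% for Pbx3 and 103% for Meis1. What these lists have to do with the low genes was not tested.

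The accumbens arrays of CE/J, NON/LtJ and WSB/EiJ were low for many of the same genes by smaller amounts. Foxp1 differed from the median of the 22 strains by -1.77, -2.07 and -1.29 log2 units in CE/J, NON/LtJ and WSB/EiJ, and Bcl11b by -1.29, -0.95 and -0.53. Six3, Meis2, Zfp503, Foxp1 and Bcl11b lay below the range of the 22 strains in all 3 arrays, and Foxp2 in NON/LtJ alone. Meis1 lay within the range in all 3, and Pbx3 in NON/LtJ and WSB/EiJ, with CE/J at 9.12 against a lowest value of 9.15. The interneuron mean was 0.57, 0.40 and 0.50 above the others' median in these arrays, within the range of the others each time, and the oligodendrocyte mean of NON/LtJ, at 10.39, was above it. Also outside the ranges of the others were the septum and olfactory means of CE/J and NON/LtJ, at 6.51 and 6.37, the astrocyte mean of NON/LtJ, at 9.81, and, below its range, the endothelial and mural mean of WSB/EiJ, at 6.15; their part in the low genes was not tested. These strains have 1 accumbens array each, so strain and array cannot be told apart.

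In cortex, the MA/MyJ array was above the other strains for every gene but Meis1, which read 4.64 there, under the filter level like all other cortex arrays. Pbx3 read 8.44, Zfp503 6.68 and Six3 5.66 in MA/MyJ cortex, where all other cortex arrays were under log2 5. Pbx3 was thus at 49.1% of the intensity of MA/MyJ accumbens. The genes measured in both regions lay above the median of the 22 strains, Foxp2 by 1.93 log2 units, Bcl11b by 1.84, Foxp1 by 1.54 and Meis2 by 1.44. The array's spiny neuron mean was 9.72 and its cortical neuron mean 7.88, below the range of 8.20 to 8.92 of the others. Foxp1 was thus at 8.96 in MA/MyJ accumbens and 8.95 in MA/MyJ cortex.

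**Figure D3:**
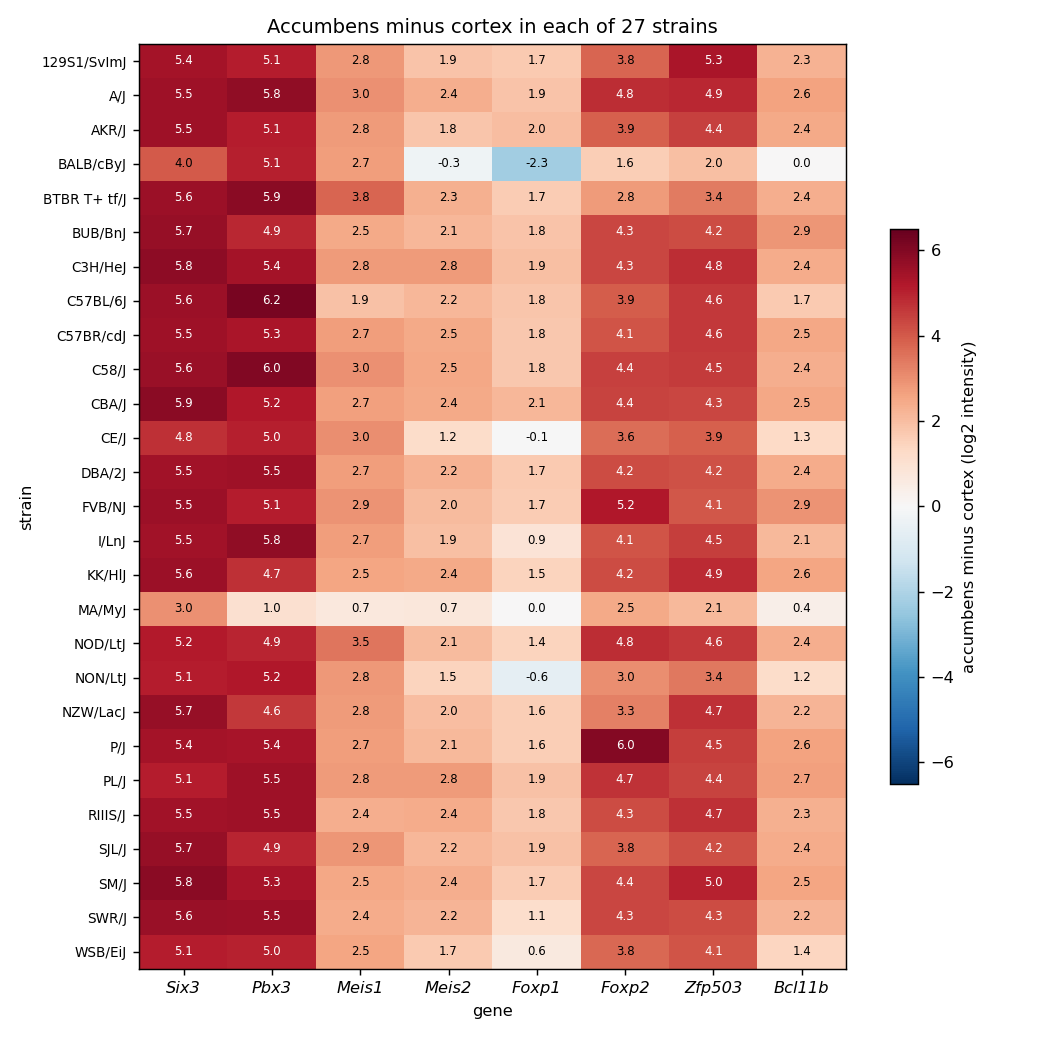
Accumbens minus cortex difference in log2 intensity (colour and printed value) for each of 27 strains (rows) and 8 genes (columns). BALB/cByJ, CE/J, MA/MyJ, NON/LtJ and WSB/EiJ hold the smallest Foxp1 differences, and Pbx3 is small in MA/MyJ alone of these; cortex levels of Six3, Pbx3, Meis1 and Zfp503 are otherwise under the filter level, so their differences are measured values without an order.

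A second comparison asked whether the strains differed in a way shared by both regions. Over 27 strains none of the 8 genes was called (limma moderated F test), against 20.4% of features, and 0 of 8 had an unadjusted p under 0.05. The SD of strain means was 0.23 to 0.52 log2 units and the residual SD 0.37 to 0.69, with medians of 0.18 and 0.20 over all features. For 6 of the 8, BALB/cByJ had the lowest strain mean, and for 7, MA/MyJ had the highest. On the 22 strains the residual SD was 0.13 to 0.45, and Foxp1 alone was called (adjusted p = 0.0103), against 20.5% of features. Its strain means ran between 7.90 in I/LnJ and 9.07 in SJL/J.

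The Foxp1 call was lost without SJL/J as well, a choice made after seeing the data (adjusted p = 0.118, limma moderated F test). No other strain was left out of the 22 on its own, so the call cannot be assigned to SJL/J. Over all alternatives the adjusted p ran between 0.0103 and 0.723. The SJL/J accumbens array also had a high cortical neuron mean, at 5.37, whose part in its Foxp1 level was not tested. SJL/J was at 10.02 in accumbens and 8.13 in cortex, and SWR/J at 9.40 and 8.25. The 8 Foxp1 probe sets did not show this alike. In SJL/J accumbens, 1421142_s_at, 1435222_at and 1421141_a_at lay 1.00, 0.89 and 0.68 above the median of the other strains, 1438802_at lay 0.52 above it, and 1443258_at differed from it by -0.62. In SJL/J cortex only 1435222_at and 1421142_s_at were raised by more than 0.5, at 0.69 and 0.65. The SWR/J cortex level was 0.81 above the median on 1435222_at, while the other 7 probe sets lay between -0.37 and 0.31. With every probe set tested on 22 strains, 1421142_s_at (adjusted p = 0.0027) and 1435222_at (0.029) of Foxp1 and 1438784_at of Bcl11b (0.014) were called of 32, against 7.74% of all probe sets.

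Further strains were high or low for 1 or more of the genes, as values with no test, since each has 1 array per region. Meis1 was highest in BTBR T+ tf/J accumbens, at 6.52, with NOD/LtJ at 6.24, and lowest in C57BL/6J, at 4.66, with RIIIS/J at 5.13. BTBR T+ tf/J accumbens was low for Foxp2, at 8.53 against a median of 9.61, and 5 of the 6 Foxp2 probe sets differed from the median of the other strains there by -0.97 to -1.42. Bcl11b in C57BL/6J cortex, at 8.91, was the highest after MA/MyJ, and its 4 probe sets all lay above the others' median, by 0.30 to 0.77. Foxp2 in P/J cortex read 3.99, under the filter level, and differed from the others' median by -1.56 on probe set 1438232_at. The gene's other probe sets differed there by -0.66 to 0.04. They averaged 2.55 to 4.74 in cortex, under log2 5, so they cannot show whether the level was low.

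The 8 genes were next compared with each other across arrays of 1 region. Among the 28 pairs in accumbens the median Pearson r was 0.72 and 16 pairs were called (two-sided permutation test with 100000 resamples, adjusted p under 0.05 over 56 pairs). The pairs of Six3, Meis2, Foxp1, Foxp2, Zfp503 and Bcl11b ran between 0.69 and 0.96, those of Meis1 between -0.26 and -0.06, and those of Pbx3 with these 6 between 0.25 and 0.41, of which that with Zfp503 was called (r = 0.41, p = 0.029, adjusted p = 0.0416; rho 0.64, p = 0.00032, adjusted p = 0.00288). The relation rested largely on the arrays apart: without the 2 arrays farthest from the median of the first gene 6 pairs were called, and on 22 strains 1 pair, Meis2 with Bcl11b (r = 0.67, p = 0.00047, adjusted p = 0.0263; Spearman rho 0.69, p = 0.00051, adjusted p = 0.0143), with a median r of 0.11. By Spearman's rho 10 accumbens pairs were called over 27 strains and 3 on 22, where Six3 with Foxp1 (rho 0.60, permutation p = 0.00355, adjusted p = 0.0398) and Pbx3 with Zfp503 (rho 0.58, p = 0.00451, adjusted p = 0.0421) joined that pair. Over 27 strains Meis2 with Bcl11b had r = 0.96 and rho = 0.79, each with p = 1e-05, the smallest the resamples can give, and r = 0.85 without its 2 farthest arrays. In cortex, 27 of 28 pairs were called by r over 27 arrays, 0 without the 2 farthest and 0 on 22 strains, where the median r was 0.03. By rho 4 cortex pairs were called over 27 arrays, 4 without the 2 farthest and 3 on 22 strains. Of these 3, Foxp2 with Bcl11b (r = 0.62, adjusted p = 0.0573, and rho 0.62, adjusted p = 0.0398, by the permutation test) joins genes with cortex means above log2 5. Foxp2 was still under log2 5 on P/J, FVB/NJ and A/J cortex (3.99, 4.40 and 4.87), where Bcl11b read 7.72, 7.60 and 7.92. The pair was not tested without these arrays. By the same test Six3 with Meis1 (rho 0.75, adjusted p = 0.00728) and Meis1 with Zfp503 (rho 0.65, adjusted p = 0.0224) rest on levels under log2 5, which have no order.

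Set against the mean of the 14 spiny neuron markers over 27 accumbens arrays, 6 genes were called by r (5 by rho) among 16 relations over both regions, with r between 0.82 (Foxp2) and 0.96 (Foxp1 and Bcl11b). Pbx3 and Meis1 were not, with r = 0.29 (p = 0.143, adjusted p = 0.153; rho 0.31) and r = -0.03 (p = 0.848, adjusted p = 0.848; rho 0.08) by the permutation test. On the 22 strains Bcl11b alone was called (r = 0.63, p = 0.00163, adjusted p = 0.0261; rho 0.57, p = 0.00658, adjusted p = 0.105). In cortex all 8 relations were called by r over 27 arrays, 2 by rho, and 0 by either on 22 strains. The 8 values of r in accumbens on 22 strains ran between -0.07 (Zfp503) and 0.63. Arrays of a region share dissection and normalization, and whether the relation comes from the share of spiny neurons was not tested.

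**Figure D4:**
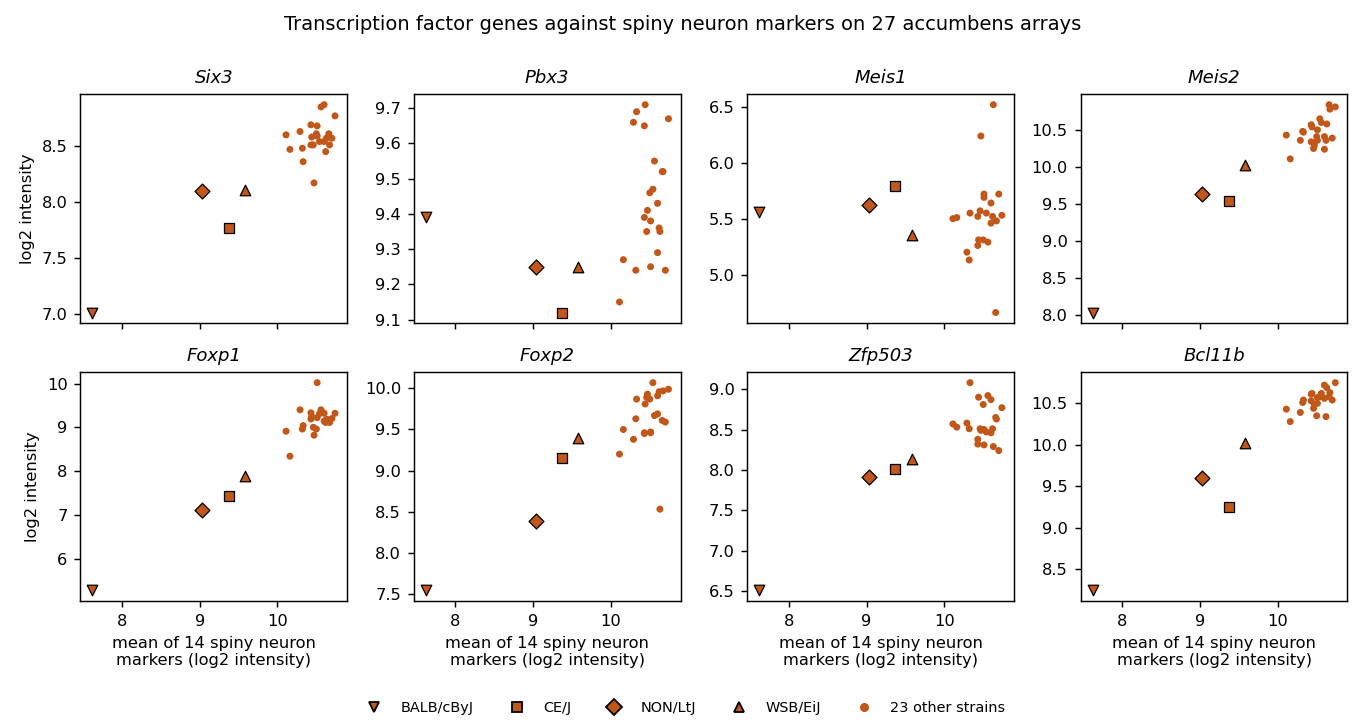
Log2 intensity of each gene (vertical axes, 1 panel per gene) against the mean log2 intensity of 14 medium spiny neuron markers (horizontal axis) on 27 accumbens arrays, with the 4 arrays that stood apart marked. Foxp1, Meis2 and Bcl11b fall with the markers in these 4 arrays, while Meis1 and Pbx3 stay within or near the range of the other 23.

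The named genes whose levels followed each gene most closely were found by Pearson r over the 54 arrays, centred within region, among 8810 genes. They are descriptions, since the 5 arrays apart carry much of the likeness. Gpr6, an orphan receptor of spiny neurons, was closest to Six3 (r = 0.97), followed by the dopamine receptor gene Drd2 (0.95) and Syndig1l (0.95). Zfp503 was closest to Gpr6 and Drd1, the other main dopamine receptor gene of spiny neurons (0.89 each), and Foxp2 to Sez6 (0.83), Slc35d3 and Drd1 (0.77 each). Meis2 and Bcl11b shared Ankrd63 as the closest gene (0.91 and 0.90). Foxp1 was closest to Ccng2 (0.92), Ngef and the muscarinic receptor gene Chrm1 (0.91 each), whose own accumbens minus cortex differences were 0.35, 0.61 and 0.03 log2 units. Pbx3 was closest to Klhl13 (0.87), Isl1 (0.85) and the enkephalin precursor gene Penk (0.82), and Meis1 to Prima1 and Rerg (0.72 each). On the 22 strains the highest r for each gene was 0.53 to 0.68, each the largest among 8810 genes on 44 arrays. Cortex levels of Six3, Pbx3, Meis1 and Zfp503 all lay under log2 5 there, so their r rests in part on levels without an order. For Pbx3 the SD on these strains was 0.44 in cortex and 0.17 in accumbens. Drd2 was closest to Six3 (0.67), followed by Zscan22 (0.55) and Gpr6 (0.53). Ido1, a tryptophan-degrading enzyme of spiny neurons, was closest to Meis1 (0.68), followed by Acyp1 (0.66) and Kcnmb4 (0.65). Closest to the others were Npnt (Pbx3, 0.67), Htr2c (Meis2, 0.64), Rab40c (Foxp1, 0.67), Tnfrsf21 (Foxp2, 0.68), Perp (Zfp503, 0.53) and Pxdn (Bcl11b, 0.62). The own differences of Npnt, Acyp1 and Kcnmb4 were -3.91, -0.74 and -1.39 log2 units, and those of Ido1 and Htr2c 4.56 and 4.46.

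Other transcription factors of the striatal lineage were mostly, but not all, higher in accumbens. Of 16 tested among 24 listed, 12 were higher and 3 lower, against 51.0% and 32.9% of features. Some of the 12, Isl1, Rarb and Rxrg among them, had cortex means under log2 5 and passed the filter mainly through accumbens arrays. The count is therefore a description. The median difference was 1.82 log2 units, or 0.74 if log2 5 stands in for any lower region mean (0.12 and 0.10 over all features). Rarb, a retinoic acid receptor, differed by 5.71 (SE 0.23, at least 12.3-fold), its partner Rxrg by 4.30 (SE 0.17, at least 5.79-fold), Isl1, a LIM homeodomain factor of direct-pathway and cholinergic neurons, by 5.04 (SE 0.12, at least 4.41-fold), and Foxo1, a forkhead factor outside the Foxp family, by 3.35 (SE 0.15, 10.2-fold). The activity-induced factors Egr3 and Nr4a1 went the other way, by -0.96 (SE 0.14) and -0.88 (SE 0.12), and Dlx1 was the third that was lower, by -0.33 (SE 0.14). Zic1 did not pass the threshold (0.24, SE 0.15, adjusted p = 0.13). Dlx1 and Zic1 were named after their values had been seen.

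Close relatives of the 8 genes showed no common direction. Of 22 relatives listed, 8 were tested, with 3 higher, 4 lower and a median of -0.08. Zfp703, the relative of Zfp503, averaged 4.27 ± 0.36 in accumbens and 6.81 ± 0.22 in cortex (SD, n = 27), at least 3.51-fold lower, so the pair ran in opposite directions. Mkx, a TALE homeodomain gene, was at least 2.24-fold lower (2.82 ± 0.23 in accumbens and 6.17 ± 0.35 in cortex). Pbx2 was 1.77-fold higher (0.83, SE 0.04) and Meis3 at least 1.25-fold higher (0.61, SE 0.05). Foxp4 averaged 5.38 in both regions, with a difference of 0.00 (SE 0.05) that became -0.15 and passed the threshold after quantile normalization, and Bcl11a, at 9.13 in accumbens and 9.29 in cortex, was lower by -0.16 (SE 0.06), a call lost on 22 strains; both were named after their values had been seen. None of the 5 relatives of Six3 was tested.

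Cofactors were split. Of 21 tested among 23 (TLE corepressors, and parts of the NuRD and BAF chromatin complexes that these factors recruit), 12 were higher in accumbens and 6 lower, or 8 and 7 after quantile normalization. Their share called higher was close to the 51.0% of all features, and their median difference of 0.12 was that of all features. Among the TLE corepressors, which Six3 and Foxp proteins can bind, Tle4 differed by 1.45 (SE 0.07), Tle1 by 0.91 (SE 0.09) and Tle3 by -1.64 (SE 0.06). Tle2 was at least 1.05-fold lower, at 3.68 in accumbens and 5.07 in cortex. Transcription factors of cortical neurons were lower for 14 of 17 tested genes and higher for 3, against 32.9% and 51.0% of features. Those with accumbens means under log2 5 passed the filter mainly through cortex arrays, so the count is a description. The median difference was -1.89, or -1.30 with log2 5 put in for any lower region mean. Accumbens means of Neurod6, Tbr1, Fezf2 and Neurod2 were under log2 5, at 3.10, 4.35, 2.86 and 2.26, against 9.22, 8.74, 7.77 and 5.79 in cortex. Neurod6 was at least 18.6-fold lower in accumbens, Tbr1 at least 13.3-fold, Fezf2, a deep-layer factor, at least 6.84-fold and Neurod2 at least 1.73-fold, while Pou3f1 and Cux1 were higher in accumbens, by 0.91 and 0.60.

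**Figure D5:**
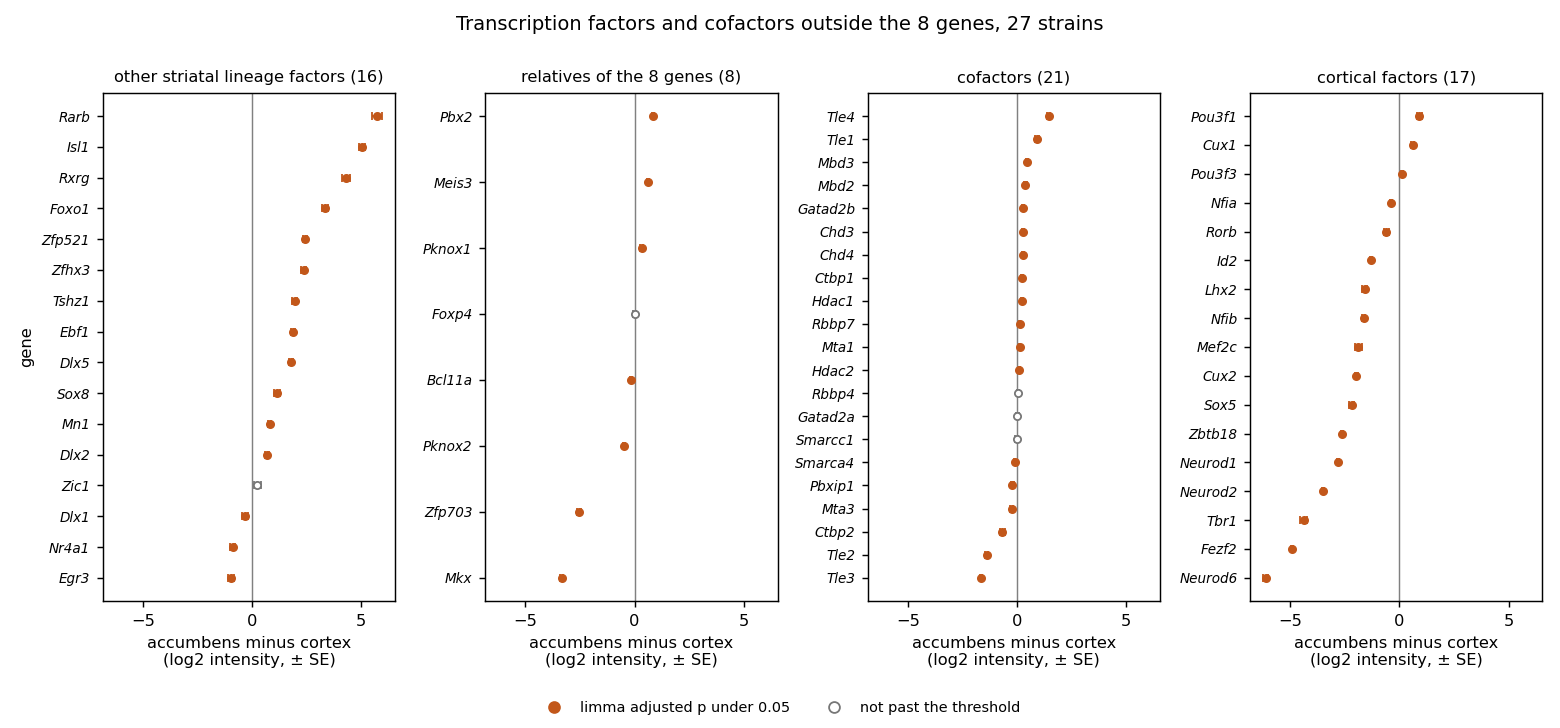
Accumbens minus cortex difference (horizontal axes, log2 intensity, ± SE over 27 strains) of the tested genes of 4 lists: other striatal lineage factors, relatives of the 8 genes, cofactors, and cortical factors. Open points did not pass the threshold, and differences with a region mean under log2 5 are drawn as measured, without an order; cortical factors lie mostly left of 0 and striatal lineage factors mostly right of it.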

How the data were processed

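The authors deposited a linear intensity for each probe set of 1-colour arrays, made with GCRMA per the submitters' processing notes, with no version given in the sources used here; GCRMA corrects background, quantile-normalizes and summarises probes. Of 45015 probe sets, 64 controls were left out, and 34880 had 1 gene symbol, 923 several and 9148 none. The log2 of each intensity was used, with no pseudocount. The median intensity of an array lay between 9.65 and 10.13 in accumbens and between 9.93 and 10.42 in cortex. Precision is limited by the number of arrays. At rank 11 from the bottom, values lay between 1.124 and 1.147 log2 units on accumbens arrays and between 0.985 and 1.019 on cortex arrays.

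A limma 3.58.1 model in R 4.3.3 (lmFit and eBayes) had region and strain as coefficients over 54 arrays and 10684 features. Strain was the pairing because, per the design text of the series, the regions of a strain were taken from shared brains. The region coefficient had a moderated t test and the strain coefficients a moderated F test, Benjamini-Hochberg adjusted over all features, at 0.05. Correlations used permutation tests with 100000 resamples (Python 3.11.15, numpy 2.4.6, pandas 2.3.3, scipy 1.17.1, matplotlib 3.10.9). The fit and the correlations were tested on simulated data. The genes, the lists and the 5 strains left out were chosen with earlier results of these data known. Named outside the 8 genes were up to 4 genes per list by size, up to 2 called against the list's median, and the 3 closest genes of each; other names are marked in the text. Promoters are from RefSeq; the files name no genome build, so no other coordinates are given. The alternatives were other filters, scalings, probe set rules, variance models, thresholds and covariates, no pairing, and leaving out strains.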

Additional observations from a re-analysis of the deposited data

How the results depend on the processing

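The 8 region differences kept their direction and stayed past the threshold under each of 16 alternatives that tested the gene and under each of 27 refits without 1 strain. With a filter at log2 7 only 7 of the 8 were tested, as Meis1 dropped out, and without probe sets prone to cross-hybridisation only 6, as Meis1 and Pbx3 dropped out; all tested were called. Without the replicate block of strain, 8 of 8 were called. The largest moves came from raising low intensities to log2 5 (Six3 to 3.43, Meis1 to 0.54), from the oligodendrocyte list as a covariate (Foxp1 to 1.04, its highest adjusted p 0.028) and from leaving out prone probe sets (Meis2 to 3.53, another probe set). That Meis2 probe set had a cortex mean of 4.58, under log2 5. Refits without 1 strain gave Foxp1 differences between 1.26 and 1.43 and Six3 between 5.31 and 5.42. None of the 8 genes was called for strain in any alternative except on 22 strains, where the count was 1 (Foxp1, adjusted p = 0.0103). Of 28 accumbens pairs 16 were called by r, 6 without the 2 farthest arrays and 1 on 22 strains (10, 7 and 3 by rho), and of 16 relations with the spiny neuron list over both regions 14, 5 and 1 (7, 1 and 0 by rho); fewer and less spread arrays enter these by construction. The whole table's higher and lower calls were 10293 and 12391 with no filter, 4462 and 4371 after quantile normalization, and 635 and 542 at 2-fold with low values raised, against 5451 and 3516, or 886 and 757 at 2-fold. With 1 array per strain and region, strain effects within a region could not be tested, and levels below log2 5 have no order.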

Other observations

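The cortex arrays of MRL/MpJ and NZO/HILtJ, which entered no comparison, read 3.00 and 3.02 for Six3, 4.79 and 4.32 for Pbx3, 2.74 and 2.80 for Meis1, 8.24 and 8.23 for Meis2, 7.39 and 7.64 for Foxp1, 5.02 and 5.26 for Foxp2, 4.20 and 3.99 for Zfp503, and 8.03 and 8.10 for Bcl11b (log2 intensity). All lay within the range of the 27 other cortex arrays.

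Of the listed factors, relatives and cofactors, Rorb, Tle1, Nr4a1, Rbbp4 and Id2 were called for strain over 27 strains. Their adjusted p values (limma moderated F test) were 2.7e-05, 4.6e-05, 0.0045, 0.0088 and 0.023. These were 1 of 16 striatal lineage factors, 2 of 21 cofactors, 2 of 17 cortical factors and 0 of 8 relatives, against 20.4% of all features. Rorb, Rbbp4 and Id2 were named after their values had been seen.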
